A study of Homo sapiens with 4 samples.

Results

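The 9 human *PAX* genes (*PAX1* to *PAX9*) were examined for chromatin binding by SS18::SSX and by WDR5 in the HSSY II line. Members were all genes of the family, each with its gene body and 20 kb on either side, and they were 9 of the 20033 protein-coding genes in GENCODE 44 (hg38). SS18::SSX is the fusion oncoprotein that defines synovial sarcoma (SS), and WDR5 is a shared subunit of the MLL complexes that methylate H3K4. HSSY II is an SS18::SSX1-positive human SS line. MS67 is a PROTAC, a bifunctional molecule that brings WDR5 to an E3 ubiquitin ligase for degradation. Binding was mapped by CUT&RUN, in which a nuclease tethered to the antibody releases the bound chromatin for sequencing. The 4 groups were SS18::SSX with DMSO, SS18::SSX with MS67, WDR5 with DMSO, and WDR5 with MS67, each after 4 days and with MS67 at 2.5 μM. Every group carried murine NIH-3T3 cells transduced with H2B-GFP as a spike-in, and for SS18::SSX a GFP antibody was added to target these cells. Each group was 1 library from 1 cell line, so differences between groups could not be set against replicates and were not tested. Of 15141 SS18::SSX peaks with DMSO, 56 touched a *PAX* window, against 6 of 1175 with MS67. Of 35605 WDR5 peaks with DMSO, 44 did so, against 9 of 14123 with MS67.

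PAX proteins are transcription factors that bind DNA through a paired domain and direct the formation of organs in the embryo. They fall into 4 subfamilies by their domains and sequence. *PAX1* and *PAX9* pattern the vertebral column, thymus, and teeth. *PAX2*, *PAX5*, and *PAX8* act in the kidney, the midbrain and B cells, and the thyroid. *PAX3* and *PAX7* mark neural crest and muscle progenitors, whereas *PAX4* and *PAX6* act in the endocrine pancreas, with *PAX6* also required in the eye and brain. Many developmental genes of this kind have CpG-rich promoters and lie under Polycomb repression in cells that do not use them. The SSX part of the fusion is known to bind nucleosomes that carry H2AK119ub, a mark set by Polycomb complexes.

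Genome-wide coverage, recovered from the fold and p-value of the peaks, was 0.541 fragments per bp for SS18::SSX with DMSO and 0.737 with MS67, a ratio of 1.36. For WDR5 it was 0.368 with DMSO and 0.168 with MS67, a ratio of 0.458. The WDR5 MS67 library was therefore the shallowest, and the SS18::SSX MS67 library the deepest. A peak is missing from a list whenever it falls short of the significance limit of that list, so an absent peak does not show absent binding. The spread of a summit count is given as an exact Poisson 95% interval and that of a share as an exact Clopper-Pearson 95% interval, both of which cover counting error only.

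SS18::SSX peaks with DMSO lay at 8 of the 9 *PAX* genes, and only *PAX4* had none. Across all protein-coding genes, 37.1% had such a peak in the same window. The *PAX* windows are long, with a median of 102925 bp against 67471 bp for all protein-coding genes, and a longer window holds more peaks. Per length, the 9 windows held 5.54 SS18::SSX peaks per 100 kb with DMSO, against 0.701 over all protein-coding windows. Peaks covered 1.72% of the *PAX* windows and 0.212% of all windows. *PAX2* and *PAX5* held 40 of the 56 peaks (71.4%), so the family total mostly described this pair. WDR5 peaks with DMSO also lay at 8 of the 9 genes, again all but *PAX4*, where the share over all protein-coding genes was 79.2%. Their density was 4.35 per 100 kb in the *PAX* windows against 1.79 overall.

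With MS67, SS18::SSX peaks were listed at 2 genes, *PAX2* and *PAX5* (4.53% of all protein-coding genes), and WDR5 peaks at 4 genes, *PAX2*, *PAX5*, *PAX8*, and *PAX9* (60.1% of all). The density of SS18::SSX peaks was 0.593 per 100 kb in the *PAX* windows against 0.0512 overall. That of WDR5 was 0.890 against 0.742. The family thus stood above the whole annotation in SS18::SSX peak density under both treatments, and near it for WDR5 with MS67.

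**Figure D1:**
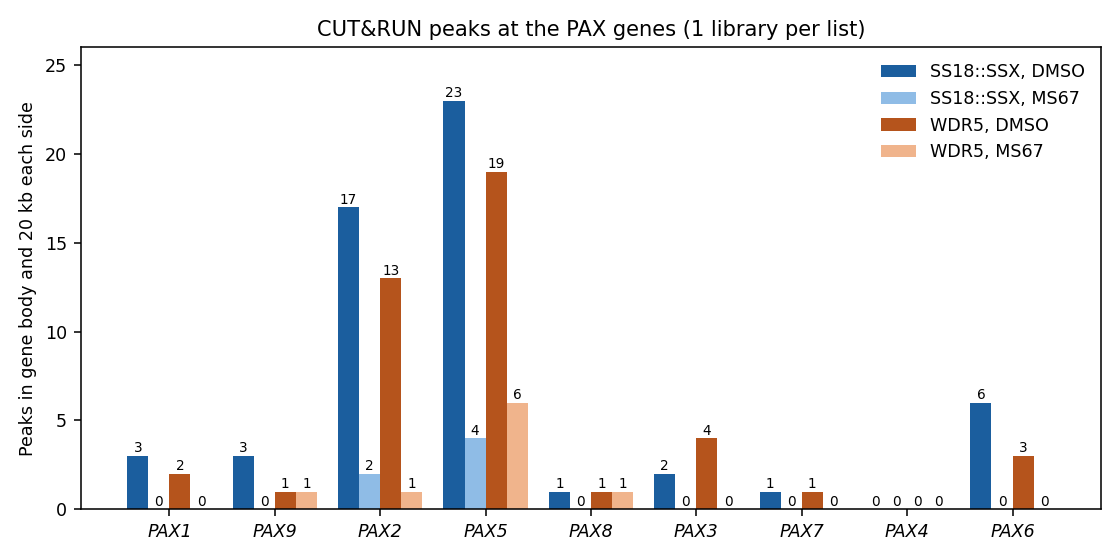
Number of CUT&RUN peaks (vertical axis) in the gene body and 20 kb on each side of each *PAX* gene, with 1 bar per list and the number above it (1 library per list, no error bars). *PAX5* and *PAX2* held 23 and 17 SS18::SSX peaks with DMSO, and *PAX4* held 0 in all 4 lists.

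Peaks centred at a promoter, which reached 1000 bp before and 100 bp after a start site, were fewer. SS18::SSX with DMSO had 12 of them at 5 genes, *PAX1*, *PAX9*, *PAX2*, *PAX5*, and *PAX6*, against 13.4% of all protein-coding genes. WDR5 with DMSO had 4, 1 each at *PAX2*, *PAX5*, *PAX7*, and *PAX6*, against 43.0% of all. With MS67, *PAX5* was the only member with a promoter peak in either list, with 2 peaks for SS18::SSX (0.719% of all genes) and 1 for WDR5 (27.7% of all). A peak at any annotated start site counted, and the members had from 3 start sites (*PAX7*) to 66 (*PAX6*). These shares were not adjusted for that number. More member peaks touched the genes than lay outside them. Gene bodies also make up most of the length of the 9 windows, so the counts below do not show a preference for gene bodies. Of the 56 SS18::SSX peaks with DMSO, 33 touched introns only, 9 touched an exon of their *PAX* gene, and 14 lay outside it. Of the 44 WDR5 peaks with DMSO, these numbers were 22, 7, and 15.

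The sequences around the summits are shown for the most significant SS18::SSX peak (DMSO) at *PAX2*, *PAX5*, *PAX8*, and *PAX6*, because each is the best-scoring site of a gene described below, and for the *PAX5* promoter peak that was also called with MS67. Each spans 151 bases of hg38, on the plus strand, 5′ to 3′, with CG dinucleotides in capitals. The *PAX2* stretch (chr10:100731553-100731703) lies upstream of the gene, the *PAX5* (chr9:36986867-36987017) and *PAX8* (chr2:113277051-113277201) stretches lie in introns, and the *PAX6* stretch (chr11:31819586-31819736) lies upstream of *PAX6* in an intron of *PAUPAR*, a long noncoding RNA gene. The *PAX5* promoter stretch is chr9:37035148-37035298.
PAX2: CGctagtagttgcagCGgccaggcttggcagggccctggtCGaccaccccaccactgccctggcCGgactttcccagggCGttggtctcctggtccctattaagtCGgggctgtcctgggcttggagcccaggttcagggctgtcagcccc
PAX5: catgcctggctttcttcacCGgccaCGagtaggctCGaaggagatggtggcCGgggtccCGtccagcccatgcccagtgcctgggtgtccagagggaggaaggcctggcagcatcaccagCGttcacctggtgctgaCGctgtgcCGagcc
PAX8: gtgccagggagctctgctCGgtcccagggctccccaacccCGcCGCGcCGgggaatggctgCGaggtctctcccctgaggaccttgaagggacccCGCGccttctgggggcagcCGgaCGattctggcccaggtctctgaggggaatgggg
PAX6: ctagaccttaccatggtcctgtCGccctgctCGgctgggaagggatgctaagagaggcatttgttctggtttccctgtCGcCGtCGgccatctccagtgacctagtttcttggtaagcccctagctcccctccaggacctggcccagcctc
PAX5 promoter peak: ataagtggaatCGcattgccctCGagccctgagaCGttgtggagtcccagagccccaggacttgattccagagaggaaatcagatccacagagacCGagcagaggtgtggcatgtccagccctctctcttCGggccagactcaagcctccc

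These stretches held 6, 8, 10, 5, and 5 CG dinucleotides, in the order shown. Over all 56 SS18::SSX summits with DMSO at the *PAX* genes, the median was 6 CG dinucleotides per 151 bases (range, 0 to 17), against 4 over all 15141 peaks of the list. The median GC content was 60.3% in both. The *PAX2* summits had a median of 8 CG dinucleotides, those of *PAX6* 7.5, and those of *PAX5* 3, so the members themselves differed more than the family did from the list. For the 44 WDR5 summits with DMSO, the median was 7.5 CG dinucleotides and 63.2% GC, against 5 and 58.9% over all 35605 peaks. Neighbouring summits share a locus and are not independent.

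**Figure D2:**
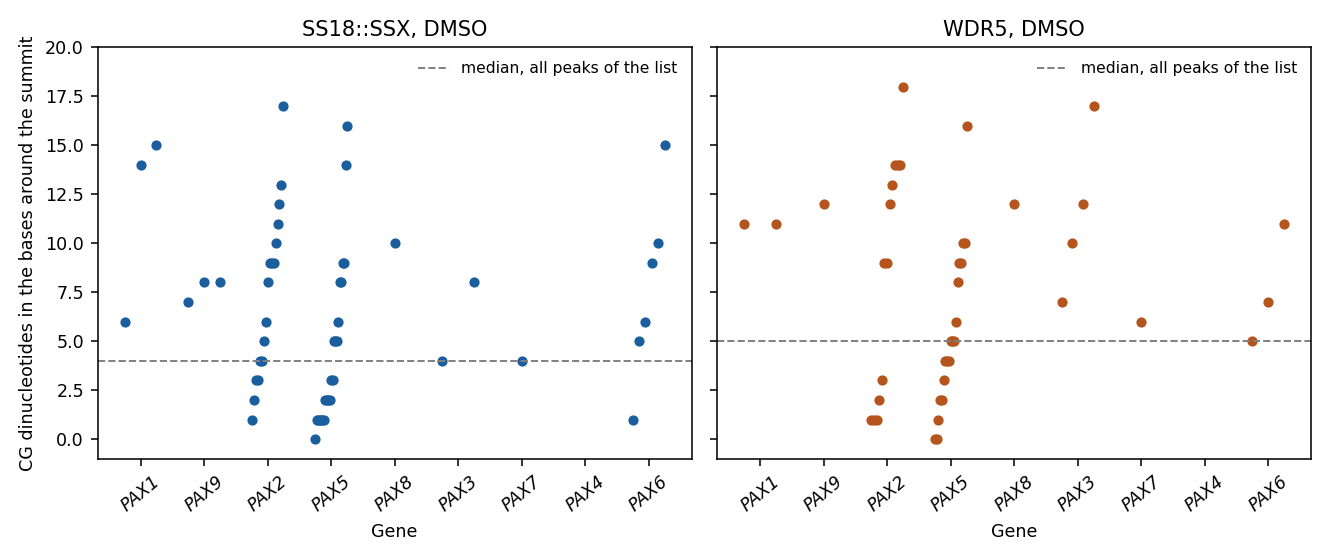
CG dinucleotides (vertical axis) in the 151 bases around each DMSO summit, by gene, for SS18::SSX (left) and WDR5 (right), with 1 point per peak and a dashed line at the median of all peaks of the list. The *PAX2* points reach 17 for SS18::SSX and 18 for WDR5, whereas most *PAX5* points for SS18::SSX lie at or under the line.

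Short motifs were searched on both strands of the same 151 bases, namely CCAAT (bound by NFY), GGGCGG (the GC box of the SP and KLF families), and CACGTG (the E-box of MYC and related factors). CCAAT was present at 4 of the 56 SS18::SSX summits (7.14%; 14.1% of all peaks), GGGCGG at 7 (12.5%; 16.3%), and CACGTG at 2 (3.57%; 3.3%). At the 44 WDR5 summits with DMSO, CCAAT was present at 5 (11.4%; 12.5% of all peaks), GGGCGG at 10 (22.7%; 18.5%), and CACGTG at 1 (2.27%; 3.26%). A match of this kind is a description of the letters and not a bound site.

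The promoters themselves also differed in CG content. RefSeq promoters (GRCh38.p14), from 250 bases before to 50 bases after a start site, were at hand for 8 of the 9 genes (all but *PAX1*) in 19 entries, against 35116 entries in all. *PAX6* alone gave the most entries of any member, and most of those with GGGCGG. Values over the 19 entries therefore weigh its start sites most. The median number of CG dinucleotides per 300 bases was 16 for the *PAX* entries and 14 overall. The *PAX5* entry held 30, and the *PAX4* entries held 0 and 2. CCAAT was present in 8 of the 19 entries (42.1%; 34.6% of all), GGGCGG in 8 (42.1%; 45.0%), and CACGTG in 0 (7.26% of all). The 250 bases before the start sites are shown, on the strand of the gene, for *PAX5* (chr9:37034269-37034518, minus strand), which kept a promoter peak with MS67, for the internal start of *PAX2* (chr10:100745332-100745581, plus strand), which had a promoter peak with DMSO, and for both starts of *PAX4* (chr7:127616028-127616277 and chr7:127618143-127618392, minus strand), which had no peak. Capitals again mark CG dinucleotides.
PAX5 promoter: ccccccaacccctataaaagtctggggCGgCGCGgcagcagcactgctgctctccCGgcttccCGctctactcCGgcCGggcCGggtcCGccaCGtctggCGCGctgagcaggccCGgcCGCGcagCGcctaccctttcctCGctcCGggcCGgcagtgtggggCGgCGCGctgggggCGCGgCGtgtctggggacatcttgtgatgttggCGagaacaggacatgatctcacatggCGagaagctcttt
PAX2 promoter: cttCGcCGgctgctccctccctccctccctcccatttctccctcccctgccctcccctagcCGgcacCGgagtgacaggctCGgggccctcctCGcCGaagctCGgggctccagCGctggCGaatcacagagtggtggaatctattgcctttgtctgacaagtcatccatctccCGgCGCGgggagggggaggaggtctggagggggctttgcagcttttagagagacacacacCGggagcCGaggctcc
PAX4 promoter a: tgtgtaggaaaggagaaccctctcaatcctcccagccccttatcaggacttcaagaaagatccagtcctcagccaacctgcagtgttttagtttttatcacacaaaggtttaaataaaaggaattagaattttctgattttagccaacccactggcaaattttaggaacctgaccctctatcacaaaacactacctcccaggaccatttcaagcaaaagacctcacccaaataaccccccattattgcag
PAX4 promoter b: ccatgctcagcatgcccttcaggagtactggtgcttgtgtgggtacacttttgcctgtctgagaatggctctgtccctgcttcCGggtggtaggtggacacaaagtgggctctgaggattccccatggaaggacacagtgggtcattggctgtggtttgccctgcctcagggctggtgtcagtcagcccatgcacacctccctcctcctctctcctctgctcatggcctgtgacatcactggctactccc

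The shown bases held 27 CG dinucleotides for *PAX5*, 15 for *PAX2*, and 0 and 1 for *PAX4*. Of the 19 promoter entries, 2 were overlapped by a peak within their 300 bases, and both belonged to *PAX6*. The other promoter peaks lay outside these 300 bases or at other GENCODE start sites.

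*PAX2*, which directs kidney and optic development, had 17 SS18::SSX peaks with DMSO, 2 with MS67, 13 WDR5 peaks with DMSO, and 1 with MS67. By number of SS18::SSX peaks with DMSO it held rank 76 among the 20033 genes, and by the covered share of its window (4.53%) rank 375. The peaks fell into 2 runs. The first held 13 peaks over 25773 bp (chr10:100724731-100750503), from 10.5 kb upstream of the first start site to 14.8 kb downstream. The second held 4 peaks over 2944 bp (chr10:100825628-100828571), at 90.3 to 93.0 kb, near the 3′ end of the gene. Between the runs, no SS18::SSX peak was listed.

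The *PAX2* peak of highest −log10 q (12.0, fold 4.16) lay 3.94 kb upstream of the first start (chr10:100731077-100731842). Its summit held 49 fragments (95% interval, 36.3 to 64.8). It overlapped WDR5 peaks with DMSO and was the only *PAX2* peak that overlapped an SS18::SSX peak with MS67. The largest DMSO summit of SS18::SSX at the gene, 52 fragments (38.8 to 68.2), lay in an intron at 4.56 kb (chr10:100739833-100740088; −log10 q = 6.94). With MS67, a peak in an intron at 0.981 kb (chr10:100736225-100736530) held 63 fragments (48.4 to 80.6) and had the highest −log10 q of the 6 SS18::SSX MS67 peaks of the family (4.51), with no overlapping DMSO peak. Of the peaks in the 3′ run, the outermost (chr10:100828162-100828571; −log10 q = 6.95) overlapped an annotated UTR exon, and its neighbour (chr10:100826966-100827450; −log10 q = 4.39) overlapped a coding exon. That neighbour was the only *PAX2* site with a WDR5 peak under both treatments.

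WDR5 peaks with DMSO at *PAX2* followed a similar outline, with 4 peaks over 7343 bp upstream of the gene, 3 peaks over 4448 bp in its first introns, and 2 over 1669 bp at the 3′ end. Another lay at a promoter 12.7 kb into the gene. A further 3 lay at 55.3, 55.8, and 79.6 kb, and the SS18::SSX peak nearest to any of them was 10521 bp away. The highest −log10 q of these 13 was 8.56 (chr10:100724488-100724915, 10.7 kb upstream). At this gene, 5 of the 17 peaks of SS18::SSX met a WDR5 peak (29.4%; 95% interval, 10.3 to 56.0%). The share over all SS18::SSX peaks with DMSO, 33.7%, lay within that interval.

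*PAX5*, required for commitment to the B-cell lineage, had the most peaks of the family in every list, with 23 for SS18::SSX with DMSO, 4 with MS67, 19 for WDR5 with DMSO, and 6 with MS67. By SS18::SSX peak number with DMSO it held rank 41 among all genes, and by covered share (2.81% of its window of 241000 bp) rank 618. Around the first start, 7 SS18::SSX peaks lay over 12077 bp (chr9:37025916-37037992). A second run of 5 peaks over 7083 bp (chr9:36980550-36987632) lay 46.7 to 53.6 kb into the gene.

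The second run held the peaks of highest −log10 q in the family. These were chr9:36986695-36987126, with −log10 q = 14.7, fold 4.36, and 56 fragments at the summit (42.3 to 72.7), and chr9:36985403-36985808, with −log10 q = 13.8, fold 4.10, and 57 fragments (43.2 to 73.9). Both lay in introns. The first overlapped WDR5 peaks under both treatments, and the second lay 991 bp from the nearest WDR5 peak with DMSO. Neither overlapped an SS18::SSX peak with MS67.

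A single SS18::SSX peak with DMSO of the family overlapped a peak in each of the other 3 lists. It was chr9:37025916-37026467, 8.08 kb into *PAX5* at an internal start site. The 2 MS67 peaks (chr9:37025880-37026195 for SS18::SSX and chr9:37026416-37026732 for WDR5) did not overlap each other, so no base was shared by all 4 lists. The −log10 q of the SS18::SSX peak with DMSO was 2.84, and that of the overlapping SS18::SSX MS67 peak was 3.56. For WDR5 the values were 5.0 with DMSO and 2.65 with MS67. The medians over all peaks of the lists were 3.68 and 3.39 for SS18::SSX and 4.37 and 3.38 for WDR5, so the site lay above the median in the SS18::SSX MS67 and WDR5 DMSO lists and below it in the others. The strongest WDR5 peak of the family, chr9:36939863-36940103 with −log10 q = 10.2 and 30 fragments (20.2 to 42.8), lay in another *PAX5* intron, 932 bp from the nearest SS18::SSX peak, and had no overlapping WDR5 peak with MS67.

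*PAX8*, needed for thyroid and kidney development, had 1 peak for SS18::SSX with DMSO and none with MS67. The peak lay in an intron 1.86 kb from the first start (chr2:113276729-113277398), with −log10 q = 12.5 and 27 fragments at the summit (17.8 to 39.3). At fold 7.12 it had the highest fold enrichment among the 56. The nearest WDR5 peak with DMSO lay 45639 bp away. The WDR5 peaks in the *PAX8* window, 1 with DMSO (−log10 q = 7.52) and 1 with MS67 (2.43), lay downstream of the gene in a coding exon of the neighbouring gene *PSD4* and overlapped each other.

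*PAX1* had 3 SS18::SSX peaks with DMSO within 2496 bp around its first start, and none with MS67. Their −log10 q values were 3.64, 4.31, and 2.71, and their summits held 17, 18, and 15 fragments. The middle peak (chr20:21705921-21706295) was at a *PAX1* promoter and touched a coding exon. The first (chr20:21704179-21704381) lay in the promoter of the adjacent long noncoding RNA gene *LINC01726*, as did 1 of the 2 WDR5 peaks with DMSO. The WDR5 summits held 7 and 6 fragments, and neither WDR5 peak overlapped an SS18::SSX peak. WDR5 with MS67 had no peak there.

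*PAX9* had 3 SS18::SSX peaks with DMSO over 4799 bp, 2 of them at promoters, with −log10 q of 1.71, 1.98, and 1.91, the lowest maximum of any member with such a peak. The first 2 also lay in an intron of ENSG00000258661, a gene that overlaps the start of *PAX9*. Their summits held 23, 24, and 21 fragments, more than those of *PAX1*, over a local background of 13.8 to 16.8 times the genome coverage. No SS18::SSX peak was listed with MS67. WDR5 had 1 peak with DMSO (chr14:36663800-36664070, −log10 q = 1.80) and 1 with MS67 (chr14:36663233-36663546, −log10 q = 2.95), which did not overlap each other.

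*PAX3*, a neural crest and muscle progenitor factor, had 2 SS18::SSX peaks with DMSO, both upstream. The nearer lay 7.61 kb from the first start (chr2:222306526-222306687; −log10 q = 6.21; 25 fragments, 16.2 to 36.9) and overlapped a WDR5 peak. The farther lay at 12.6 kb (−log10 q = 3.63; 18 fragments). WDR5 had 4 peaks with DMSO. The strongest (chr2:222291051-222291360; −log10 q = 8.43) lay in an intron 15166 bp from the nearest SS18::SSX peak, and the outermost, 19.4 kb upstream, lay just inside the window, at the promoter of the noncoding gene *CT75* and in a UTR exon of ENSG00000288658. With MS67, *PAX3* had no peak in either list. *PAX7*, the paralogue that marks muscle satellite cells, had 1 SS18::SSX peak with DMSO in an intron (−log10 q = 2.45; 14 fragments) and 1 WDR5 peak at its promoter (−log10 q = 1.53; 12 fragments), 3217 bp apart, and none with MS67.

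*PAX6*, a regulator of eye, forebrain, and endocrine pancreas development, had 6 SS18::SSX peaks with DMSO in a single run of 10710 bp (chr11:31812746-31823455) around its first start, and none with MS67. Their −log10 q ranged from 2.95 to 6.50, and the highest (chr11:31819596-31819816; 40 fragments, 28.6 to 54.5) lay 1.75 kb upstream. By covered share of its window (2.77%) *PAX6* held rank 634, beside *PAX5* at 618. By number, its 6 peaks put it at rank 520, against rank 41 for *PAX5*. All 6 peaks also lay in introns of *PAUPAR* and of ENSG00000285283, which overlap the locus. WDR5 had 3 peaks with DMSO, with −log10 q of 3.19, 1.73, and 1.40, of which 1 overlapped an SS18::SSX peak, and none with MS67. *PAX4*, which acts in insulin-producing cells, had no peak in any list, in the shortest window of the family (47851 bp).

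**Figure D3:**
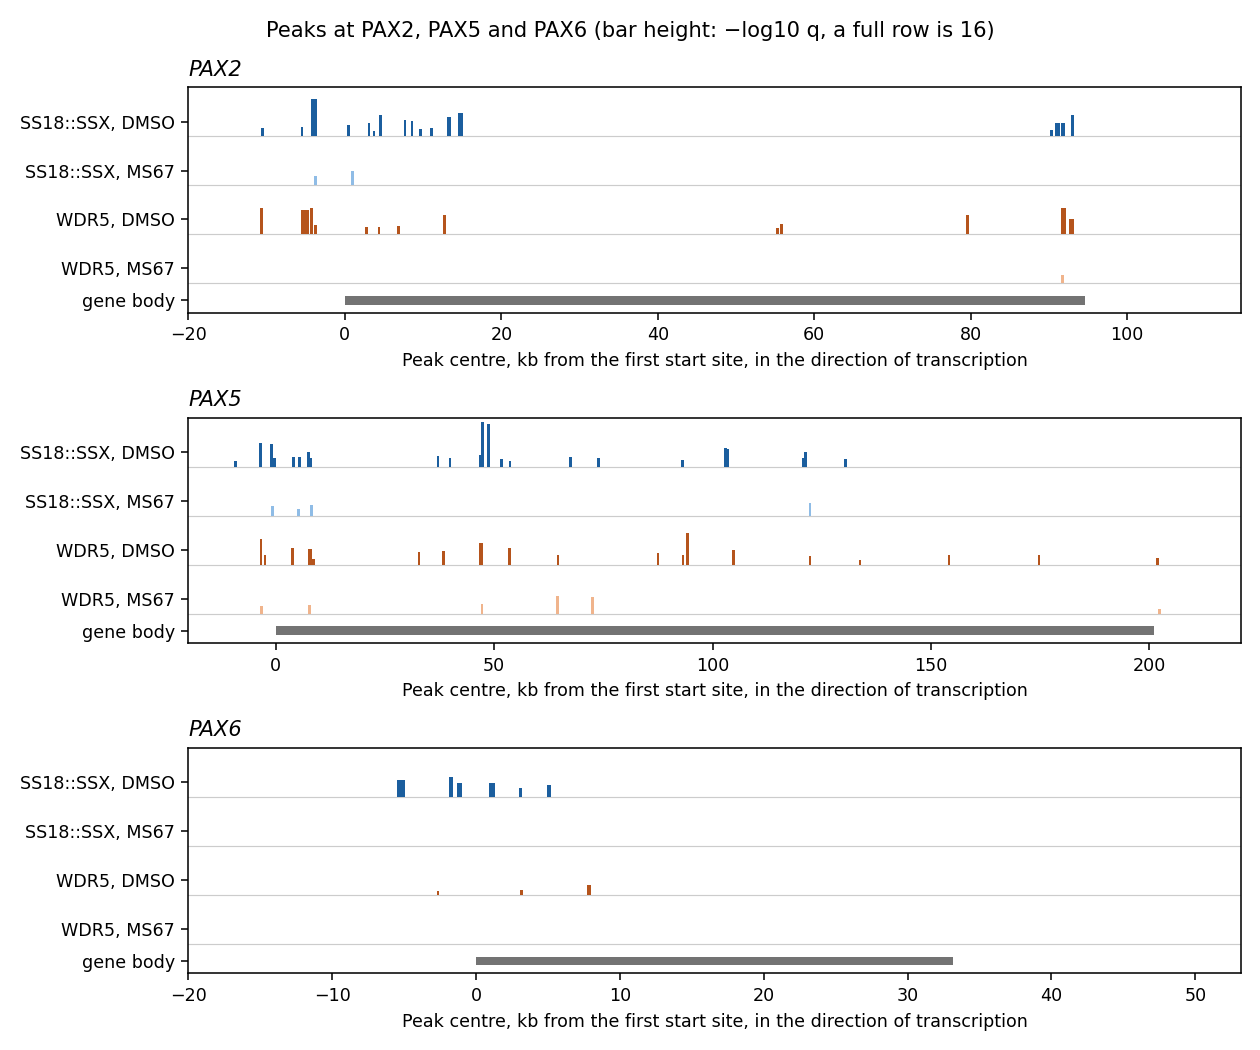
Peaks at *PAX2*, *PAX5*, and *PAX6*, by distance of the peak centre from the first start site in kb, in the direction of transcription. Each row is a list, bar height is −log10 q (a full row stands for 16), bars have a minimum drawn width, and the grey bar is the gene body. The 2 runs at *PAX2*, the intronic pair at *PAX5* that reaches 14.7, and the single run at *PAX6* are visible in the SS18::SSX DMSO rows.

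The background around the peaks differed between the members. MACS2 sets each summit against the fragments expected from its surroundings, here given as a multiple of the genome coverage of the library. Over all SS18::SSX peaks with DMSO the median of this local background was 5.72 times the coverage. At *PAX2* it was 28.6, at *PAX6* 20.7, at *PAX5* 17.2, and at *PAX9* 16.6, whereas at *PAX8* it was 5.43, at *PAX7* 6.16, at *PAX1* 6.68, and at *PAX3* 8.54. For WDR5 with DMSO the median was 4.91 over all peaks, 20.6 at *PAX2*, 19.6 at *PAX6*, 14.8 at *PAX9* (1 peak), and 13.6 at *PAX5*. The recovered local background was thus high for both targets at the *PAX2*, *PAX5*, *PAX6*, and *PAX9* peaks. It can hold fragments of neighbouring peaks, and whether a control library entered it is not known. It is therefore no separate measure of binding away from the summits. Peaks outside the windows but within 1 Mb had a median SS18::SSX background of 11.9 at *PAX2*, 2.94 at *PAX5*, and 4.27 at *PAX6*. The corresponding WDR5 values were 10.4, 5.52, and 2.85.

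A summit over a high background has a low fold even where many fragments were counted. The median fold of the 56 SS18::SSX peaks was 2.99 with a median of 31 fragments at the summit, against a fold of 3.99 and 16 fragments over the whole list. For the 44 WDR5 peaks these values were 3.55 and 20.5, against 4.61 and 13. The part of this local background in the number of called peaks was not tested.

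**Figure D4:**
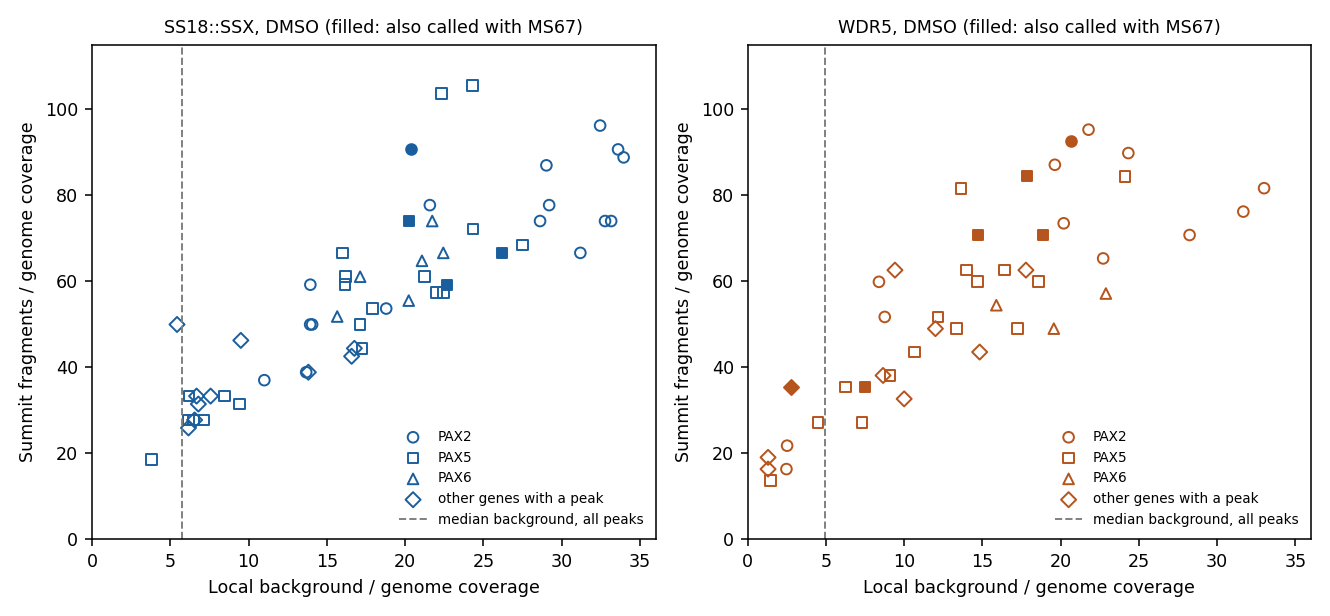
Summit fragments (vertical axis) against local background (horizontal axis), both divided by the genome coverage of the library, for the DMSO peaks of SS18::SSX (left) and WDR5 (right). Symbols show the gene, filled symbols the peaks that overlap an MS67 peak of the same target, and the dashed line the median background of all peaks (5.72 and 4.91). The *PAX2*, *PAX5*, and *PAX6* peaks lie mostly to the right of the line, and the *PAX8* peak of SS18::SSX lies just left of it at 49.9.

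The overlap with WDR5 was read in both directions. Of the 56 peaks with DMSO, 14 overlapped a WDR5 peak with DMSO (25.0%; 95% interval, 14.4 to 38.4%), and the share over all SS18::SSX peaks, 33.7%, lay within that interval. Within 1 kb, the count was 26 of 56 (46.4%; 33.0 to 60.3%), against 54.9% of all. In the other direction, 13 of the 44 WDR5 peaks overlapped an SS18::SSX peak (29.5%; 16.8 to 45.2%), and the share over all WDR5 peaks, 13.9%, lay below that interval. SS18::SSX peaks are themselves denser in the *PAX* windows, as given above. The *PAX2* and *PAX5* pair gave 12 of the 14 SS18::SSX overlaps. Outside this pair, 2 of 16 peaks overlapped, at *PAX3* and *PAX6*.

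Loss of DMSO peaks with MS67 was near the loss over the whole list for SS18::SSX. Of the 56 peaks, 52 had no overlapping MS67 peak (92.9%; 82.7 to 98.0%), against 94.2% of all. The loss was 16 of 17 at *PAX2*, 20 of 23 at *PAX5*, and 16 of 16 at the other genes. For WDR5, 38 of the 44 peaks had no overlapping MS67 peak (86.4%; 72.6 to 94.8%), against 75.0% of all. The loss was 12 of 13 at *PAX2*, 15 of 19 at *PAX5*, and 11 of 12 at the other genes. In the MS67 lists, 2 of the 6 SS18::SSX peaks (26.9% of all) and 3 of the 9 WDR5 peaks (35.6% of all) overlapped no DMSO peak.

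Depth entered the 2 losses in opposite ways. When the summit and background of each DMSO peak were multiplied by the ratio of coverages and set against the smallest −log10 p of the MS67 list, all 56 SS18::SSX peaks passed (99.6% of all), and all 52 lost peaks did so (99.6% of all lost peaks). Their scaled −log10 p ranged from 5.74 to 26.5, above the smallest listed value of 5.04. Scaling to the deeper MS67 library raises these values, so nearly every called peak passes. The step could therefore hardly have come out otherwise, and it shows nothing particular to the *PAX* peaks. For WDR5, 22 of the 44 peaks passed (59.4% of all) and 17 of the 38 lost peaks did so (44.7%; 28.6 to 61.7%; 53.0% of all lost peaks). The other 21 lost WDR5 peaks, among them all 3 at *PAX6*, would not have been called at the MS67 coverage with an equal enrichment, and their loss cannot be told apart from shallower sequencing. A lost site has no value in the MS67 list, so the size of its change could not be read.

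Sites called under both treatments could be compared by their summits. SS18::SSX had 4 such sites at the *PAX* genes. At the upstream *PAX2* site, the summit held 49 fragments with DMSO and 49 with MS67, or 90.6 and 66.5 times the coverage of each library. At the *PAX5* promoter site (chr9:37034869-37035547), it held 40 and 47 fragments, or 74.0 and 63.8 times the coverage. At chr9:37025916-37026467, inside *PAX5*, it held 32 and 45 fragments (59.2 and 61.1 times the coverage). At chr9:37028693-37028912, it held 36 and 46 fragments (66.6 and 62.4 times). There the peaks shared 32 bp and the MS67 summit lay outside the DMSO peak. The counting intervals overlapped at all 4. The median MS67-to-DMSO ratio of these summits was 0.900 (range, 0.734 to 1.03), against 0.705 over all 879 SS18::SSX sites called under both treatments (quartiles, 0.576 and 0.848). Sites kept in the MS67 list had to pass its limit, so these ratios describe the kept sites and not the loci.

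The local background at these 4 sites was at least as high with MS67. It was 20.4 times the coverage with DMSO and 27.9 times with MS67 at the *PAX2* site, and 20.2 and 25.9 at the *PAX5* promoter site. The values were 22.7 and 23.2 at chr9:37025916-37026467, and 26.2 and 28.2 at the last. Over all 879 sites, the median ratio of the background was 0.850. The −log10 q was 12.0 with DMSO and 3.03 with MS67 at the *PAX2* site, and 7.29 and 3.14 at the *PAX5* promoter. These are ratios to the coverage of each library and carry no spike-in scaling, so they do not give the absolute amount bound.

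WDR5 had 6 sites called under both treatments, 4 at *PAX5* and 1 each at *PAX2* and in *PSD4* beside *PAX8*. Their summits held 13 to 34 fragments with DMSO and 5 to 15 with MS67. Relative to coverage, the median MS67-to-DMSO ratio was 0.919 (range, 0.839 to 2.52), and 4 of the 6 were below 1, against a median of 1.27 over all 8897 WDR5 sites called under both treatments (quartiles, 0.992 and 1.64). The ratio of 2.52 came from a *PAX5* intron (chr9:36969584-36969783), where 13 fragments with DMSO (6.92 to 22.2) stood against 15 with MS67 (8.40 to 24.7), or 35.4 and 89.0 times the coverage. At this site and at the *PSD4* site, the MS67 summit lay outside the DMSO peak. The MS67 peak of this *PAX5* site was among the 2 strongest WDR5 MS67 peaks of the family. The other lay in an intron 72.5 kb from the first start (chr9:36961640-36961865, −log10 q = 5.51) and had no DMSO counterpart.

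**Figure D5:**
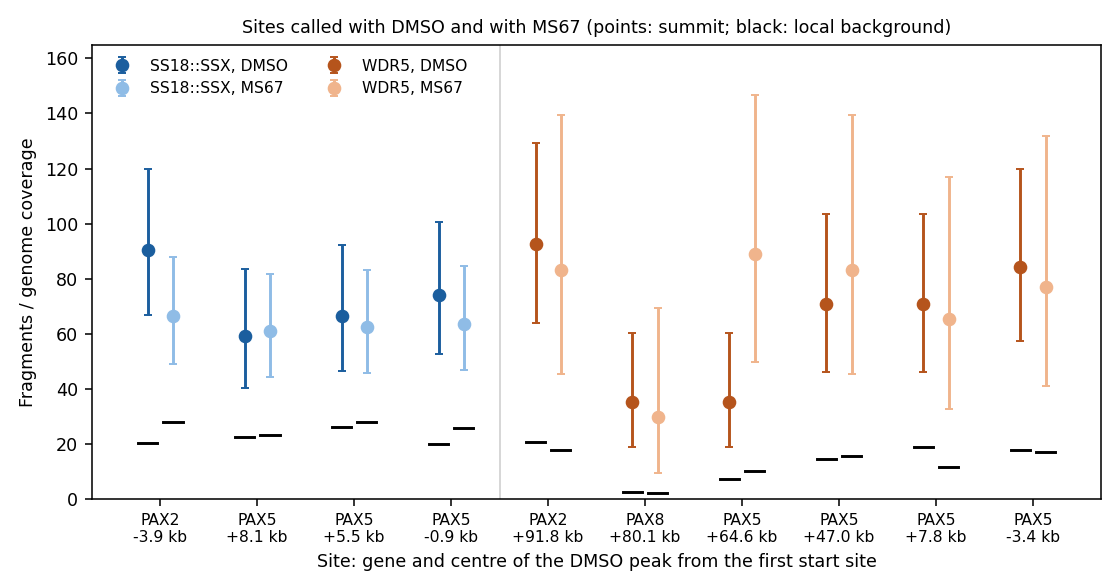
Summit fragments divided by genome coverage (vertical axis) at the 10 sites called with DMSO (darker) and MS67 (lighter), SS18::SSX left of the grey line and WDR5 right of it, with exact Poisson 95% intervals as bars and the local background as black dashes. The 4 SS18::SSX pairs overlap in their intervals, and the *PAX5* site at 64.6 kb is the WDR5 pair that differs most, 35.4 against 89.0.

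The pattern of *PAX5* over the 4 lists was compared with that of every protein-coding gene, by the Euclidean distance of log2(1 + covered bp per 10 kb of window) over the 4 lists. The nearest were *EVX1*, a homeobox gene (distance 0.18), *TFAP2A*, a neural crest transcription factor gene (0.42), and ENSG00000283128, a readthrough gene (0.46). *EVX1* had 5 SS18::SSX peaks with DMSO, 1 with MS67, 4 WDR5 peaks with DMSO, and 1 with MS67, in a shorter window than that of *PAX5*. *TFAP2A* had 3, 1, 5, and 2 peaks, and ENSG00000283128 had 18, 3, 12, and 3.

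Genes that work with PAX proteins were read from a list of 36, made of *EYA*, *DACH*, and related genes that act with PAX proteins in organ formation, 2 genes of PAX-binding proteins, and known downstream or partner genes of each subfamily. SS18::SSX peaks with DMSO lay in the windows of 22 of the 36, against 37.1% of all protein-coding genes, and WDR5 peaks with DMSO in 28, against 79.2%. With MS67 the numbers were 4 for SS18::SSX, against 4.53% of all, and 18 for WDR5, below the 60.1% of all. Promoter peaks of SS18::SSX were at 7 genes with DMSO (13.4% of all genes) and at 0 with MS67 (0.719% of all). Those of WDR5 were at 10 with DMSO and 3 with MS67, both below the share over all genes (43.0% and 27.7%). The 7 were *EYA1* (highest promoter −log10 q, 5.32) and *EYA4* (5.06), transcriptional coactivators, *MYOD1*, the myogenic factor gene (4.45), *GDNF*, a ligand in kidney budding (4.10), *SIX3*, an eye and forebrain factor gene (3.87), *NEUROG2*, a proneural gene (3.42), and *INS*, the insulin gene (1.76). Of these, *EYA1*, *EYA4*, and *GDNF* also had a WDR5 promoter peak with DMSO.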

How the data were processed

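CUT&RUN reads of 4 libraries of HSSY II cells were aligned to hg38 and to the mouse spike-in genome (mm10) by the authors with Bowtie2 (v.2.4.4). They were filtered with Samtools (v.1.10) and Picard 2.18.2. Peaks were called with MACS2 (v.2.2.6), and there is 1 peak list per library. The submitters’ processing notes list SAMtools 1.9, bedtools 2.28.0, and deepTools 3.3.0. MACS2 options, a control library, and excluded regions are not given in the sources used here. The authors deposited for each peak a fold enrichment (a ratio to the local background), a −log10 p-value and −log10 q-value, and a score, which was not used. The peak lists carry no spike-in scaling.

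Summit fragments and background were recovered from fold and p-value, and fitted 100% of peaks to within 0.001 in −log10 p. The lowest background of a list was taken as its genome coverage, and the local background was taken to reflect up to 10 kb around a summit, the default of MACS2. The recovery was tested on simulated data. Peaks were assigned to GENCODE 44 genes by an overlap of at least 1 bp, and runs joined peaks up to 5 kb apart. Shares carry exact Clopper-Pearson 95% intervals. With 1 library per group, no test was made. The text names the 9 genes, genes whose promoter or body a described peak touched, the 3 genes nearest to the *PAX5* pattern, and list genes with an SS18::SSX promoter peak with DMSO. Of the list of partner genes, 2 are not reported here. The members and lists were chosen with earlier results of these data known. Alternatives were other windows, overlaps, and promoters, stricter peaks, merged peaks, and, added after the data were seen, *PAX2* and *PAX5* left out. Python 3.11.15, numpy 2.4.6, scipy 1.17.1, and matplotlib 3.10.9 were used.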

Additional observations from a re-analysis of the deposited data

How the results depend on the processing

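Of 92 values recomputed for 15 results under alternative settings, 44 moved little (a count within 1.5 times, a share within its interval) and 48 moved more. Under the stricter standard of the study (−log10 q above 3, with fold above 3 for SS18::SSX and above 6 for WDR5), the *PAX* windows held 21 SS18::SSX peaks with DMSO (8672 bp, promoter peaks at 3 genes), 1 with MS67 (445 bp, 0 genes), 1 WDR5 peak with DMSO (402 bp, 0 genes), and 1 with MS67 (226 bp, 0 genes). The loss was then 100% for both targets (of 21 and 1 peaks), and 0% of SS18::SSX peaks overlapped a WDR5 peak. At −log10 q above 5, the windows held 16 (6815 bp, 2 promoter genes), 0 (0 bp, 0 genes), 14 (6802 bp, 2 genes), and 2 peaks (394 bp, 0 genes) in the same order. The loss was 100% for both targets, which for SS18::SSX was fixed in advance by the 0 MS67 peaks. Without *PAX2* and *PAX5* the peaks were 16 (4554 bp), 0 (0 bp), 12 (3412 bp), and 2 (494 bp). The SS18::SSX loss was then 100%, again fixed in advance by the 0 MS67 peaks, and its overlap with WDR5 was 12.5%. Gene bodies alone held 29 WDR5 peaks with DMSO (9353 bp), and 50 kb on each side gave 19 WDR5 peaks with MS67 (5122 bp). Promoters of 1 kb on either side gave 2 genes for each target with MS67. Where an overlap had to reach 50% of the DMSO peak, the loss was 98.2% for SS18::SSX and 97.7% for WDR5. With WDR5 allowed within 1 kb, 46.4% of SS18::SSX peaks were matched (54.9% of all). For the other alternatives no share over all peaks is given, so these losses and overlaps were not set against the whole lists. The stricter settings hold fewer peaks by construction. No paired analysis was possible because each group was 1 library.

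The main limits are the single library per group, the unequal depth, and lists that hold called peaks only. The *PAX* totals rest mainly on 2 genes.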
